A study of Rattus norvegicus with 8 samples.

Results

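Comp and Thbs4 encode cartilage oligomeric matrix protein and thrombospondin-4, a pair of secreted glycoproteins of the thrombospondin family. The array carried 1 probe set whose sole gene symbol was Comp (X72914_at) and 1 for Thbs4 (X89963_at), so 2 of the 8799 probe sets were followed, for 2 of the 4737 different symbols that stand alone on a probe set. The arrays, 8 in all with 2 in each of 4 groups, carried RNA of rat medial collateral ligaments, a band at the inner side of the knee, dissected at 3 weeks. Loaded control rats had sham surgery and loaded healing rats had the ligament disrupted on both sides. Unloaded healing rats had the same disruption and were suspended by the tail from 24 h after surgery, which lifts the hind legs off the ground. Unloaded control rats were suspended in that way without any sham operation, so the effects of suspension and of the sham operation cannot be told apart between the control groups. The labels give no strain, sex or age. Nothing in them tells whether the arrays within a group hold RNA of different rats, so p-values measure only the spread between these arrays, which may be technical.

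As background, thrombospondins are calcium-binding proteins that assemble into oligomers outside the cell. COMP is a pentamer that binds collagens, fibronectin and matrilins, is abundant in cartilage, tendon and ligament, and is known as a protein of load-bearing tissue. Thrombospondin-4 is also a pentamer, is found in tendon, muscle and nerve, and helps organise collagen and the attachment of muscle to tendon. Both are made by tendon and ligament fibroblasts and pass through the endoplasmic reticulum before secretion.

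The sequence upstream of each gene is shown because both genes fell between the control groups, while their differences after injury in loaded rats had opposite signs, as described below. The bases before the annotated start came from RefSeq promoters of rat build GRCr8, where both genes were found, and the 250 bases before the start are printed 5′ to 3′ on the minus strand. Capitals mark matches to the E-box letters CANNTG, the core recognised by basic helix-loop-helix factors such as scleraxis, a tendon transcription factor.
Comp, chr16:19089549-19089798: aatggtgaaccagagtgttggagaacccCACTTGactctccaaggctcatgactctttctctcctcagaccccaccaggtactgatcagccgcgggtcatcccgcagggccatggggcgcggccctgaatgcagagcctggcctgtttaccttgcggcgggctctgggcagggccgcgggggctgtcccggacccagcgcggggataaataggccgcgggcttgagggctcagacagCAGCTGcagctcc
Thbs4, chr2:25760346-25760595: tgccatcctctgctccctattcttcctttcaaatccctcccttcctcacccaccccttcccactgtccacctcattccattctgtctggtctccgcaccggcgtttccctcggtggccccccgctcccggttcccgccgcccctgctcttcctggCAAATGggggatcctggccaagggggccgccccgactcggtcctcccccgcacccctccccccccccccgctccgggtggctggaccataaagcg
Comp held 2 E-box matches and Thbs4 held 1, searched on both strands, and 65.5% of 33469 rat promoter windows of this length held at least 1. The GC box GGGCGG was matched at 2 places in Thbs4 and 0 in Comp, against 30.5% of windows with at least 1. The letters CAGAC, bound by SMAD proteins, were found 2 times in Comp and 1 time in Thbs4, against 42.9% of windows. No match overlapped a match of another motif. The TATA letters TATAAA (12.9% of windows), the AP-1 letters TGANTCA (6.3%) and the SOX letters AACAAT (10.3%) were not in either window. The windows had a GC content of 64.8% in Comp and 67.6% in Thbs4, against a median of 51.2%. These matches describe letters and do not show binding.

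Signals are linear intensities per probe set, scaled by the authors to a near-common trimmed mean (500.3 to 500.6). Both arrays of the unloaded controls stood apart from the rest: their 99th percentiles were 5494 and 5584, against at least 9218 on the other 6. The actin 5′/3′ control ratio was 0.634 and 0.964 on them and at most 0.529 elsewhere. The same ratio for GAPDH did not set them apart, at 0.712 to 0.953 on them and 0.729 to 0.896 elsewhere. The loaded healing arrays read below loaded control on the 3′ control probe sets. Actin read 1353 and 1597 against 4393 and 4955, and GAPDH read 842.6 and 1038.5 against 2277.5 and 2334.6. The 3′ actin signal was also low on unloaded control (1284 and 1494). The part of these signals in the results, among them the Comp difference in loaded healing, was not tested. Of 10 markers of ligament fibroblasts, Tnmd and Scx had no probe set with that sole symbol, and Fmod, Dcn, Lum, Bgn, Col1a1, Col1a2, Col3a1 and Sparc were tested. The brightest probe set of each of these 8 read at least 826.3 in loaded control and at most 1298 in unloaded control. The collagen-binding proteoglycan Fmod read 2878.5 and 2624 in loaded and 294.2 and 131.3 in unloaded control, though its other probe set differed by only 0.21 on the log2 scale and did not pass. Each result that uses the unloaded controls rests on arrays with low signal for ligament genes, and the part of that low signal in the results was not tested.

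Comp was brightest in the loaded control ligament. Its signal in loaded control was 1859.8 and 2505.5, followed by 223.2 and 360.8 on loaded healing, 137.3 and 302.1 on unloaded control, and 524 and 536 on unloaded healing. Both loaded controls lay above all 6 other arrays, and both unloaded healing arrays lay above the loaded healing and unloaded control arrays. The order of group means was loaded control (2183 ± 457, SD, n = 2), unloaded healing (530 ± 8.49), loaded healing (292 ± 97.3) and unloaded control (219.7 ± 117). Loaded healing and unloaded control overlapped, and the other neighbours in this order did not. The share of all probe sets whose groups lie apart in this way was not counted, so the order is a description only.

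Thbs4 followed a different order. Its signal was 2865.8 and 2639.6 on the loaded healing arrays, 1543.7 and 1503.9 on loaded control, 1181.7 and 726.5 on unloaded healing, and 75.7 and 41.3 on unloaded control. No neighbouring groups overlapped, which is likewise a description only. The group means were 2753 ± 160 (SD, n = 2), 1524 ± 28.1, 954.1 ± 322 and 58.5 ± 24.3 in that order. The 41.3 of unloaded control 2 was below the 10th percentile of that array, 56.1, and the 75.7 of unloaded control 1 was just above the 61.5 there. Within arrays, Thbs4 ranked at the 13.7th and 5.87th percentile of probe sets in unloaded controls and between the 78.1st and 96.1st on the other 6. Comp ranked at the 93.2nd and 95.8th percentile in loaded controls and between the 27.4th and 70.8th elsewhere.

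**Figure D1:**
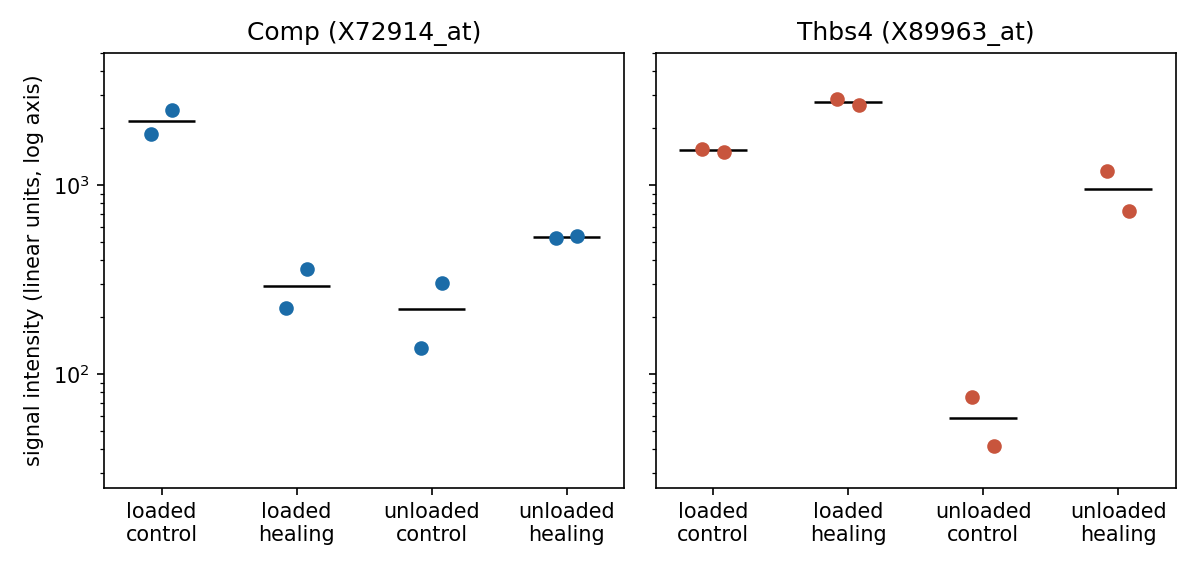
Signal intensity of Comp (left) and Thbs4 (right) on each array, on a log axis, by group. Points are the 2 arrays of a group and bars are their mean. Comp is highest in loaded control at 1859.8 and 2505.5, and Thbs4 is highest in loaded healing at 2639.6 and 2865.8.

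In loaded rats, injury was followed at 3 weeks by a lower Comp signal, while Thbs4 was higher without passing the test. Comp fell 6.67-fold between sham and healing ligament (log2 difference -2.74 ± 0.45 SE, limma adjusted p = 0.0134, n = 2 arrays a group). It was the 12th largest fall among 5244 probe sets tested. Thbs4 read 1.78-fold in healing relative to sham (log2 0.83 ± 0.35, 95% interval 0.05 to 1.62), and did not pass (limma adjusted p = 0.381). Thus 1 of 2 members was called, against a background of 2.02% of probe sets in either direction and 0.992% lower. Log2 differences are of signal plus an offset of 45.8, which shrinks those of dim probe sets. The call of Comp ended when any of the 4 arrays compared was left out: adjusted p was 0.0870 and 0.152 with loaded control 1 or 2 left out, and 0.121 and 0.0522 with loaded healing 1 or 2 left out, with differences of -3.04 to -2.44.

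Between the healing groups, neither gene passed the test. The unloaded controls enter this comparison only through the shared estimate of spread. Thbs4 was 2.87-fold lower in unloaded than in loaded healing ligament (log2 -1.52 ± 0.35, 95% interval -2.31 to -0.73, limma adjusted p = 0.0772), and Comp read 1.74-fold in the other direction (0.80 ± 0.45, interval -0.20 to 1.80, adjusted p = 0.586). So limma called 0 of 2 members, against a background of 1.62%. Thbs4 alone had an unadjusted value under 0.05 (0.00159). Thbs4 passed in 4 of 21 alternatives: fitted without the unloaded control arrays (adjusted p = 0.0317), fitted without them and with a term for replicate number (0.00650), with the offset 4 times as large (0.0307) and scaled to the spike-in controls (0.0146). Over all 21 alternatives its adjusted p ran from 0.00650 to 0.377.

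The unloaded healing ligament was also set against the loaded sham ligament, the comparison of injury plus unloading with neither. Comp was 3.83-fold lower (log2 -1.94 ± 0.45, 95% interval -2.94 to -0.94, limma adjusted p = 0.333). It was the 8th largest fall of 5244, in a comparison with 4 calls by limma, or 0.0763%. Thbs4 differed by -0.69 ± 0.35 (interval -1.48 to 0.10, adjusted p = 0.914). So limma called 0 of 2 members, and Comp alone had an unadjusted value under 0.05 (0.00159).

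Both genes were lower in unloaded than in loaded control ligament. Thbs4 fell by 3.93 ± 0.35 on the log2 scale (limma adjusted p = 2.76e-05) and Comp fell by 3.13 ± 0.45 (adjusted p = 0.00111). The size for Thbs4 depends on the offset, since its signals of 75.7 and 41.3 are near the dim end of these arrays: it was -4.69 with a floor in place of the offset and -2.82 with the offset 4 times as large. Both of 2 members were called lower, against a background of 6.22% lower and 6.81% in either direction. The same calls were made in all 19 alternatives, with differences of -4.69 to -2.82 for Thbs4 and -3.59 to -2.57 for Comp. Tendon genes as a group moved with them here, as given below.

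In unloaded rats Thbs4 was higher in healing than in control ligament (log2 3.24 ± 0.35, limma adjusted p = 0.000125). This size depends on the offset in the same way, at 3.98 with a floor and 2.21 with the larger offset. Comp was 2.28-fold higher (1.19 ± 0.45, 95% interval 0.19 to 2.19) and did not pass (adjusted p = 0.176). So 1 of 2 members was called, against 7.46% in either direction and 6.41% higher. Both comparisons with the unloaded controls share those 2 arrays.

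The difference between healing and control ligament was not the same in unloaded as in loaded rats for either gene. The loaded controls had a sham operation and the unloaded ones did not, so loading and the sham operation cannot be told apart here. The interaction, the healing minus control difference in unloaded rats minus that in loaded rats, was 3.93 ± 0.63 for Comp (limma adjusted p = 0.00315) and 2.41 ± 0.50 for Thbs4 (adjusted p = 0.0172), against a background of 4.84% called and 4.52% higher. For Comp the healing differences were of opposite sign, -2.74 in loaded and 1.19 in unloaded rats, of which the first passed. For Thbs4 both were positive, 0.83 and 3.24, of which the second passed. The call of Comp was kept in all 18 alternatives. That of Thbs4 ended without loaded control 1 (adjusted p = 0.0731), loaded control 2 (0.0669), loaded healing 1 (0.0816), loaded healing 2 (0.10) or unloaded healing 1 (0.0754). It also ended with spike-in scaling (1.84, adjusted p = 0.0965) and with the larger offset (1.43, adjusted p = 0.0825).

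**Figure D2:**
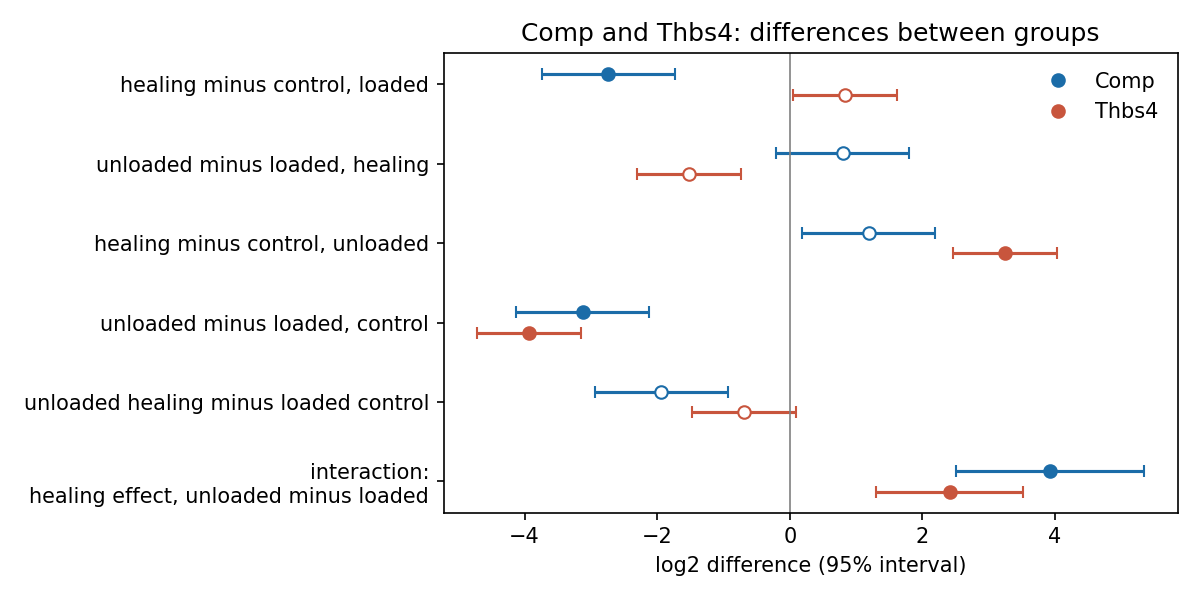
Log2 differences of Comp and Thbs4 in 6 comparisons, with 95% intervals from limma. Filled points passed an adjusted p of 0.05 and open points did not. In loaded healing Comp lies at -2.74 and Thbs4 at 0.83, and between the control groups both lie below 0.

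The ratio of Comp to Thbs4 was also taken within each array. With the offset added to both signals, its log2 value in loaded control was 0.26 and 0.72, with -3.44 and -2.72 on loaded healing, 0.59 and 2.00 on unloaded control, and -1.11 and -0.41 on unloaded healing. All 4 healing arrays lay below all 4 control arrays. The unloaded control ratios, with or without the offset, rest on Thbs4 signals of 75.7 and 41.3, near the dim end of those arrays. The levels of 2 probe sets cannot be compared, so only the shifts between groups are read. The difference in ratio was -3.57 between loaded healing and loaded control, and -2.05 between unloaded healing and unloaded control. It was 2.32 higher in unloaded than in loaded healing. In each of these the 2 groups did not overlap, with an exact two-sided permutation p of 0.333, the smallest that 2 against 2 arrays allow. Between the control groups the ratio overlapped (difference 0.80, exact permutation p = 0.667), and there it rested on single arrays, at 1.51 without unloaded control 1 and 0.10 without unloaded control 2. Without the offset the ratio does not depend on the scaling between arrays. It then differed by -3.78 between loaded healing and loaded control, by -2.67 between unloaded healing and unloaded control, and by 2.47 between the healing groups. Between the control groups it differed by 1.36, where the arrays then did not overlap (exact permutation p = 0.333). With the offset, the healing shift in unloaded rats was -2.76 without unloaded control 1 and -1.35 without unloaded control 2.

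**Figure D3:**
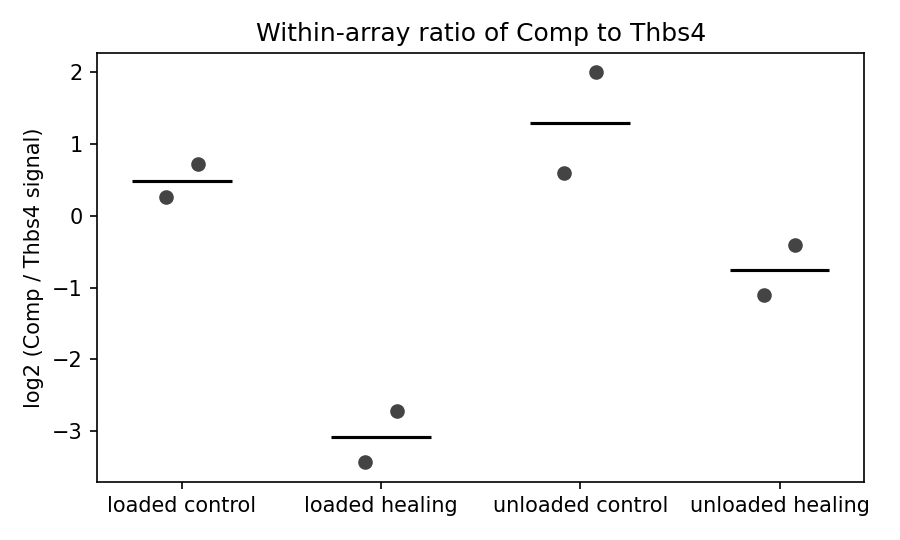
Log2 ratio of the Comp to the Thbs4 signal on each array, by group, with the offset added to both. Points are arrays and bars are group means. The loaded healing arrays are lowest at -3.44 and -2.72, and all healing arrays lie below all control arrays.

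Other genes that tendon and ligament fibroblasts express had differences on both sides of 0 after injury in loaded rats. Of 25 listed genes 14 were tested, 8 with positive and 6 with negative values. Of these 0 rose and 2 fell, with a median log2 difference of 0.09 against -0.03 over all probe sets. The bone and ligament glycoprotein Sparc (osteonectin) fell by 1.66 ± 0.17 and the small proteoglycan Bgn (biglycan) fell by 1.38 ± 0.25. A further Sparc probe set was called at -1.22 and another read 0.11. The other Bgn probe set read -1.19 and did not pass. The number called was 1 whichever of the 4 arrays compared was left out, and 7 without the unloaded controls and with a term for replicate number. Comp, at -2.74, lay below all 14 of these genes, and Thbs4, at 0.83, lay among those with positive values. Lum (lumican, a proteoglycan of collagen fibrils) read 1.15 and Fmod (fibromodulin) read -1.08, and neither passed. Between the healing groups 1 rose (Sparc, 0.90) and 2 fell (Col1a2, -1.99, and Col3a1, -1.20). Further Sparc probe sets read 0.74 and -0.56 in this comparison, and neither passed. The list median was -0.63 against 0.06 over all probe sets. The number called there was 4 without the unloaded controls, 6 without them and with a term for replicate number, and 1 without either loaded control, either loaded healing array or unloaded healing 2. Between the control groups 10 of 14 fell and 0 rose (median -2.76 against 0.23), with 6.22% lower over all probe sets. In unloaded rats 8 rose with healing and 0 fell (median 1.88 against -0.23), with 6.41% higher over all probe sets. Col1a1, which encodes a type I collagen chain, read -6.44 and 5.76 on its brightest probe set. Its other 3 probe sets read -2.75, -1.38 and -3.19 between the control groups and 1.94, 0.78 and 2.01 with healing in unloaded rats. For the interaction 8 were called higher and 0 lower. Between unloaded healing and loaded control 0 passed with limma, and 7 had an unadjusted p under 0.05 (median -0.72).

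**Figure D4:**
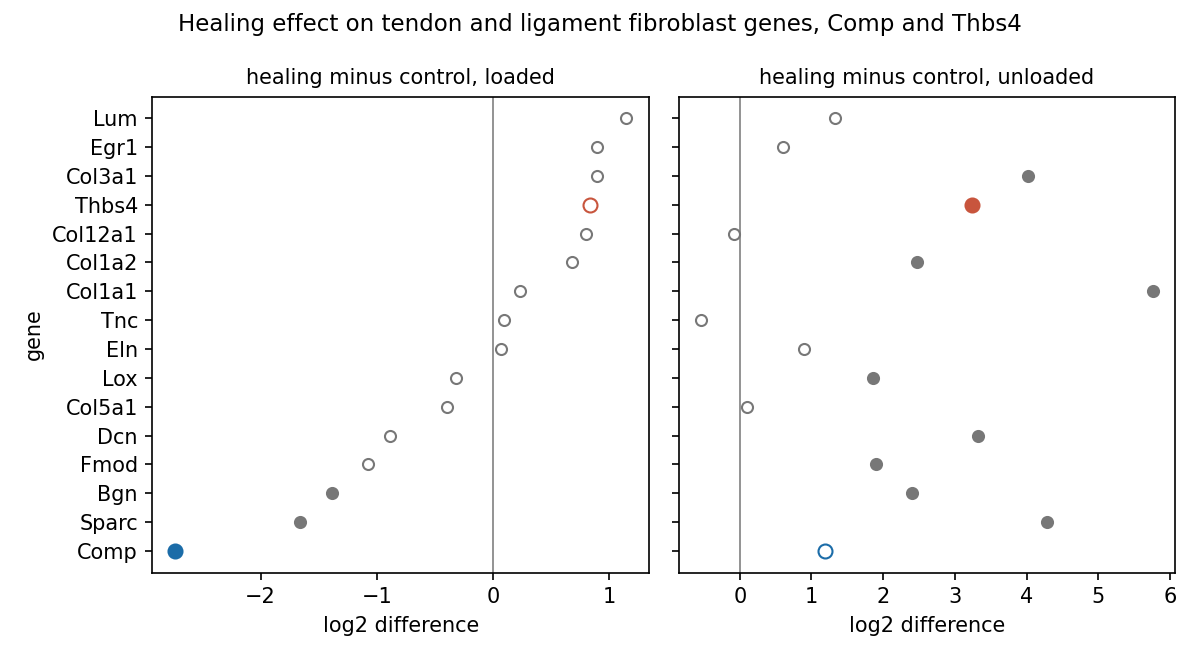
Log2 difference between healing and control ligament in loaded (left) and unloaded (right) rats for 14 tendon and ligament fibroblast genes and the members, each by its brightest probe set. Filled points passed a limma adjusted p of 0.05. Comp is lowest on the left at -2.74, and Thbs4 passes on the right only, at 3.24.

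The matrix proteins that COMP and thrombospondin-4 bind moved both ways in loaded healing. Of 23 listed partners 11 were tested, of which 2 rose and 1 fell (median 0.68 against -0.03). Grn, the granulin precursor, a growth factor that binds COMP, rose by 2.49 ± 0.32, and Fn1 (fibronectin, a cell-adhesion protein of wound matrix) rose by 1.36 ± 0.25. Bgn was the one that fell. Other probe sets did not pass: Grn read 0.31, Fn1 read 0.11 and -0.99, and Bgn read -1.19. The count of 3 was 1 without loaded control 1, loaded control 2 or loaded healing 2, and 0 without loaded healing 1, with limma in each case. It was 7 at an unadjusted p under 0.05 with all arrays. Between the healing groups 4 fell and 0 rose (median -0.92 against 0.06): Col1a2, Grn (-1.96), Fn1 (-1.93) and Col3a1. Their other probe sets did not pass: Fn1 read 0.56 on both, Col3a1 read 0.70 and Grn read -0.33. That count was 1 without loaded healing 1, 2 without loaded healing 2 and 1 without unloaded healing 2. Between control groups 8 fell and 0 rose (median -1.87 against 0.23), with 6.22% lower over all probe sets. In unloaded rats 7 rose with healing and 0 fell (median 2.22 against -0.23), with 6.41% higher over all probe sets. Other probe sets of Fn1 (1.09 and -0.83), Grn (-0.13), Bgn (-1.07) and Col3a1 (-1.07) did not pass between the control groups. Those of Col1a1 and Dcn were called lower there. For the interaction 5 were higher and 0 lower, and limma called 0 between unloaded healing and loaded control, with 5 at an unadjusted p under 0.05. The cartilage partners Col2a1, Col9a1, Col11a1 and Acan were under the filter on dim probe sets, and the matrilins, which bind COMP, had no probe set with a sole symbol.

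Of 14 listed receptors and relatives of the thrombospondins, 8 were tested, and none of those passed in any of the 6 comparisons with limma. The relatives Thbs1, Thbs2 and Thbs3 were not tested, as they had no probe set with that sole symbol. The same held for Itga5 and Lrp1, and Cd36 was under the filter. In loaded healing the list median was 0.54 against -0.03, and 0 of 8 had an unadjusted p under 0.05. The integrin chain Itgav read 1.33 ± 0.60, its partner chains Itgb1 and Itgb3 read 0.69 and 0.66, and the thrombospondin receptor Cd47 read 0.77 ± 0.52. Between the healing groups the median was -0.07, also with 0 at an unadjusted p under 0.05. The count at an unadjusted p under 0.05 was 2 for healing in unloaded rats, 1 between the control groups, 0 for unloaded healing against loaded control and 0 for the interaction.

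Among 9 tested matrix-cleaving proteases and inhibitors, 1 rose in loaded healing, the collagenase Mmp13 (3.20 ± 0.63). That count was the same in 11 of 21 alternatives, and 0 without loaded control 1, either loaded healing array or either unloaded control array. Between control groups 1 fell, the inhibitor Timp2 (-1.42 ± 0.33), a count that was 0 without either loaded control, either loaded healing array or unloaded control 1. Limma called 0 in the other 4 comparisons, where 3, 3, 0 and 1 had an unadjusted p under 0.05 (between healing groups, healing in unloaded rats, unloaded healing against loaded control, interaction). The Adamts proteases known to cut COMP had no probe set with a sole symbol. Of 11 tested TGF-beta pathway genes, a pathway that drives matrix genes in tendon, limma called 0 in all 6 comparisons. At most 2 had an unadjusted p under 0.05 in any of these comparisons, and the ligands Tgfb3 and Inhba read 0.54 ± 0.28 and -0.17 ± 0.30 between the healing groups. Of 9 tested chaperones and folding enzymes of the endoplasmic reticulum, through which both members are secreted, 1 fell in loaded healing, the isomerase Ppib (-1.52 ± 0.33, limma adjusted p = 0.0499). That count was 0 in 16 of 21 alternatives, among them leaving out any single array. Between the control groups 1 fell, the chaperone Hspa5 (-2.54 ± 0.55), a count that was 0 without loaded control 2 or either unloaded control. Ppib was called higher for the interaction (2.21 ± 0.46), a count that was 0 in 8 of 18 alternatives, among them leaving out any single array other than loaded healing 1. Between the healing groups limma called 0 of the 9, and 2 had an unadjusted p under 0.05.

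The ligaments were bulk samples, in which fewer cells of a type and less RNA per cell cannot be told apart. Some markers of macrophages moved with the loaded healing group. The summed signal of 14 probe sets was 9915 to 10521 in loaded control and 42026 to 51959 in loaded healing. It was 6823 to 6919 in unloaded control and 11843 to 11956 in unloaded healing. Much of the loaded healing sum came from Lyz2 (16260.4 and 13978) and Spp1 (11380.1 and 7321.8). Other markers did not pass in loaded healing: Cd14 read -0.24, Aif1 -0.08, Ptprc 0.08, Cd74 0.07 and Fcgr2b 1.88. Of 11 tested, 6 rose in loaded healing (median 1.88 against -0.03) and 6 fell in unloaded against loaded healing (median -1.43 against 0.06). Over all probe sets 2.02% and 1.62% were called in either direction. Spp1, the secreted matrix protein osteopontin, led both counts (4.27 and -3.78). The first count was 3 without loaded healing 1, and the second was 2 without loaded healing 1 and 3 without loaded healing 2 or either unloaded healing array. In unloaded rats 5 rose with healing, or 3 without unloaded control 1 or unloaded healing 2, and 4 fell between the control groups. Over all probe sets 6.41% and 6.22% were called in these directions. For the interaction 1 marker was called higher, Cd74 (3.49), and 2 lower, Spp1 (-3.21) and Ctss (-1.58), and 6 had an unadjusted p under 0.05. The 3′ actin control probe set read 1353 and 1597 in loaded healing and 4393 and 4955 in loaded control. It read 4786 and 5235 in unloaded healing, and between 1284 and 1494 in unloaded control. The part of these in the results was not tested. Cartilage, the other main source of Comp, could hardly be followed. Of 12 listed markers 6 had a probe set with a sole symbol, and 5 of these were under the filter. The sixth, Col10a1, read -0.06 in loaded healing. Its signal was 1218.9 and 1131.4 in loaded control and 2146.9 and 1849.3 in unloaded control. The part of cartilage in the Comp signal was not tested. The summed cartilage signal, most of it Col10a1, was 1545 to 1794 in loaded control and 1406 to 1762 in loaded healing. It was 2779 to 3103 in unloaded control and 1446 to 2010 in unloaded healing. Skeletal muscle, which can express Thbs4, had a summed signal of 25474 to 26512 in loaded control and 34746 to 36872 in loaded healing. The sum was 18483 to 20753 in unloaded control and 30610 to 33602 in unloaded healing. A large part of it was Tpm1 alone, at 12161.4 and 10095.8 in loaded control and 12064.8 and 15788.7 in loaded healing. Of 16 tested muscle markers 1 rose in loaded healing, the actin Acta1 (1.18), and 1 fell in unloaded against loaded healing, the myosin Myh4 (-1.42). The first count was the same in 7 of 21 alternatives and was 0 when any one of the 4 arrays compared, unloaded control 2 or an unloaded healing array was left out, and the second was 0 when any one of the 4 arrays compared was left out. Thbs4 was called in 3 comparisons. For the interaction limma called 0 of the 16 muscle markers, and 4 had an unadjusted p under 0.05. Of the 16, 11 were positive and 5 negative, with a median of 0.36 against -0.16 over all probe sets. With healing in unloaded rats 4 muscle markers rose, among them Acta1 (2.30) and Myh4 (1.75), against 6.41% higher over all probe sets. Between the control groups 2 fell, Myh4 (-2.18) and Acta1 (-1.29), against 6.22% lower over all probe sets. The count of 4 was 2 without unloaded control 2 or either unloaded healing array, and the count of 2 was 1 without loaded control 1. Endothelial markers had 0 of 9 called by limma in loaded healing (0 at an unadjusted p under 0.05) and 1 lower between the healing groups, Nos3 (-1.49), a count that was 0 in 15 of 21 alternatives, among them leaving out any single array. In unloaded rats 1 fell with healing, and limma called 0 between the control groups (0 at an unadjusted p under 0.05). Adipocyte markers had 1 of 6 higher in loaded healing, the lipase Lpl (1.95), which was also lower between the healing groups (-2.05). The first count was 0 without loaded control 1 or either loaded healing array, and the second was 0 when any one of the 4 arrays compared was left out. Erythroid genes had 0 of 4 called by limma in loaded healing and between the healing groups, with 2 at an unadjusted p under 0.05 in each. In unloaded rats 2 rose with healing, the globins Hbb (3.33) and Hbb-b1 (2.74), and between the control groups 1 fell, Hbb (-1.52), a count that was 0 without loaded control 1 or unloaded control 2.

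Profiles most like those of the members were found by the root-mean-square distance of log2 values over the 8 arrays, each probe set centred on its own mean. The nearest to Thbs4 were Oaz1 (0.24 log2 units), S100a4 (0.34), Col3a1 (0.34), Col1a2 (0.34) and Tmsb4x (0.39). All 5 have their highest signals in loaded healing and their lowest in unloaded control, for example Col3a1 at 6629.1 and 5376.8 against 127.4 and 104. The nearest to Comp were Eef2 (0.58), the antioxidant enzyme Gpx3 (0.63), Gpx4 (0.65), Ppib (0.68) and a probe set of Col1a1 (0.69), so its neighbours were less close. This Ppib probe set is not the brighter one that was called among the chaperones. Comp and Thbs4 lay 1.71 log2 units apart. Over the 6 arrays without unloaded controls, 2 of 5 neighbours of Comp remained, Eef2 (0.28) and Gpx3 (0.44), and 0 of 5 of Thbs4, whose nearest were then a probe set of Dcn (0.12) and Fstl1 (0.15). Probe sets of a gene differed here: the Col1a1 probe set near Comp read -1.21 in loaded healing, and the brightest one read 0.23. The Dcn probe set near Thbs4 read 0.80 and the brightest one -0.88.

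**Figure D5:**
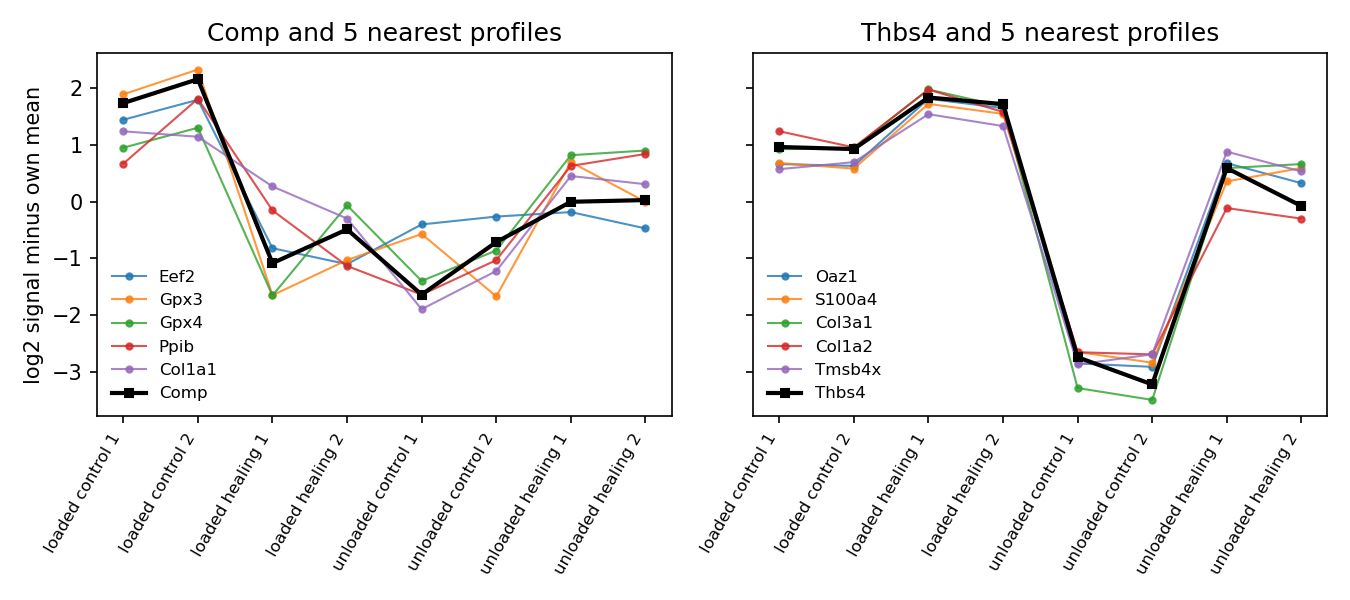
Log2 signal minus its own mean over the 8 arrays for Comp (left) and Thbs4 (right), in black, and the 5 nearest profiles of each. Lines only join the points of a probe set. The neighbours of Thbs4 lie within 0.24 to 0.39 log2 units of it and those of Comp within 0.58 to 0.69.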

How the data were processed

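The authors deposited 1 linear intensity for each of 8799 probe sets on 8 arrays, scaled between arrays before deposit. The summarising software is not given in the sources used here, and no detection calls were used. Symbols are those of the array's probe table (7018 probe sets with 1 symbol, 308 with several, 1473 with none). Without 59 control probe sets, log2 was taken of the signal plus 45.8, an offset equal to the 10th percentile over the table, and the dimmest 40% of probe sets were dropped, leaving 5244. Both members passed this filter.

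Group means were estimated with limma 3.58.1 (R 4.3.3) over all 4 groups, with a variance prior that follows intensity (4 residual and 5.81 prior degrees of freedom). Tests were two-sided, with Benjamini-Hochberg adjustment over the 5244 probe sets within each of 6 comparisons and a threshold of 0.05. The fitting code was tested on data simulated to meet the model's assumptions, which checks the code and not the calls made here. The number of arrays limits the precision.

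The 12 gene lists used the brightest probe set of each gene and were described by counts and medians. Named list genes were the up to 4 largest called changes of a list, with values for others named after they were seen, among them Itgav, Itgb1, Itgb3, Cd47, Lum and Fmod. The promoter windows, cut to the bases before the RefSeq start, and the motifs searched in them on both strands were chosen after the data and these sequences had been seen. The members and lists were chosen with earlier results of these data known. Alternatives were other scalings, offsets, filters, variance priors, a term for replicate number, fits to fewer groups and leaving out each array.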

Additional observations from a re-analysis of the deposited data

Results flagged for a closer look

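The interaction was tested and passed for both genes: the healing minus control difference in unloaded rats differed from that in loaded rats. For Comp the difference was 3.93 log2 units (limma adjusted p = 0.00315) and for Thbs4 it was 2.41 (adjusted p = 0.0172), a call that was lost in 7 of 18 alternatives. The unloaded controls had no sham operation, so loading and the sham operation cannot be told apart. Both values use the unloaded control arrays, on which Comp read 137.3 and 302.1 and Thbs4 read 75.7 and 41.3. The part of those arrays' low signal for ligament genes was not tested. Groups of 2 arrays are too small for a check of outlying arrays.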

How the results depend on the processing

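Of 238 repeated values of Comp and Thbs4 over the 6 comparisons, 223 kept their direction and side of the threshold, 11 lost the call, 4 gained one and 0 changed direction. Leaving out single arrays moved the Comp difference in loaded healing between -3.04 and -2.44 and the Thbs4 interaction between 2.08 and 2.74. The Thbs4 interaction was 1.84 with spike-in scaling and 1.43 with the offset 4 times as large, and did not pass in either. Thbs4 between the healing groups passed at -2.01 with spike-in scaling, -1.40 with the larger offset and -1.52 without the unloaded controls, with or without a term for replicate number. The within-array ratio moved, for healing in unloaded rats, to -1.35 with the larger offset and ran from -2.76 to -1.35 as arrays were left out. Between the control groups it ran from 0.10 to 1.51. Spike-in scaling moved the median of all probe sets from -0.03 to 0.34 in loaded healing and from 0.06 to -0.40 between the healing groups, with calls split 84 higher to 22 lower and 18 to 119. In loaded healing 106 calls became 64 with median centring, 70 without a filter, 29 without the intensity trend and 27 to 37 as compared arrays were left out. Between the healing groups 85 calls became 42 with median centring, 137 with spike-in scaling, 16 without the trend and 25 to 50. With quantile normalization, healing in unloaded rats had 622 calls (388 higher, 234 lower) against 391, and the control groups 590 (205 higher, 385 lower) against 357. Between unloaded healing and loaded control 4 calls ranged from 0 to 15. Without the intensity trend limma called 0 of the tendon genes and 1 of the matrix partners in loaded healing, and 0 of both between the healing groups. With median centring, and also without a filter, it called 1 of each list in loaded healing in place of 2 tendon genes and 3 partners, and 1 tendon gene in place of 3 between the healing groups. The cause was not tested. A term for replicate number (replicate block) changed no call of the members, with Comp in loaded healing at -2.74 (limma adjusted p = 0.00642) and Thbs4 between the healing groups at adjusted p = 0.0547, and took the tendon genes called between the healing groups from 3 to 5. Same-numbered arrays correlated in their deviations at 0.159 to 0.204 among loaded control, loaded healing and unloaded healing, and at 0.001 to 0.014 with unloaded control, and the labels do not say what the number marks. A fit with the replicate block and without the unloaded controls was therefore added after seeing the data. It called 222 probe sets in loaded healing, 172 between the healing groups and 15 between unloaded healing and loaded control, with Comp in loaded healing at adjusted p = 0.00154. Partners called became 5, 7 and 1, and tendon genes 7, 6 and 2, in the same order. The ratio without an offset or floor was also added after seeing the data.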
